A study of Mus musculus with 40 samples.

Results

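The 10 genes described here are Btg4, Cnot1, Cnot6, Cnot6l, Cnot7, Cnot8, Zfp36l2, Dcp1a, Dcp2 and Pan2. They were chosen by name as genes of the BTG4, CCR4-NOT and decapping machinery, out of 11323 genes listed across 8 deposited tables. All 10 were listed in each of the 4 total RNA tables, and 9 in each of the 4 polysomal RNA tables. Cnot6 was in no polysomal table, and a table lists only genes with at least 0.2 RPKM in each of its 8 libraries.

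The study sequenced RNA of mouse oocytes and zygotes that had matured either in culture or in the animal. The 40 libraries form 10 groups of 4, which are 5 types of cell in 2 RNA fractions. IMZ are pronuclear zygotes whose maturation and fertilization both took place in vitro, and IVZ are pronuclear zygotes matured and fertilized in vivo. IVM are oocytes matured in vitro after the cumulus cells were removed, COC are oocytes that matured in vitro within cumulus-oocyte complexes, and IVO are oocytes matured in vivo. Polysomal RNA is the RNA recovered after polysome fractionation, which enriches messenger RNA bound by several ribosomes, and total RNA was not fractionated. Of strain, age and number of cells per library the sources used here say nothing, and maturation and fertilization conditions change together between IMZ and IVZ. The labels do not say whether the 4 libraries of a group came from separate collections of animals, and p-values therefore measure spread among libraries that may be partly technical.

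A fully grown oocyte is transcriptionally silent and lives on stored maternal messenger RNA, much of which is destroyed during meiotic maturation and after fertilization. Removal of the poly(A) tail usually starts this decay. CCR4-NOT is the main deadenylase complex: Cnot1 is its scaffold, Cnot7 and Cnot8 are alternative catalytic subunits, and so are Cnot6 and Cnot6l. Btg4 is an adaptor made in maturing oocytes that links the complex to its targets, and Zfp36l2 is a zinc finger protein that brings it to AU-rich messages. Pan2 is the nuclease of a separate deadenylase. Once the tail is short, Dcp2 removes the 5′ cap with Dcp1a as its activator. In mouse oocytes the messages for several of these factors are themselves stored and translated as maturation proceeds.

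Total RNA libraries held about 46600000 to 63200000 reads, with a median of 53700000, as recovered from the steps between low values. Depth could be recovered for 12 of the 20 polysomal libraries, and ran from 3140000 to 25600000 reads, with a median of 9460000 and with IVZ replicate 1 the shallowest. Spearman correlations between libraries of a table were 0.983 to 0.997 in total RNA and 0.651 to 0.963 in polysomal RNA. The file headers mark polysomal IVM replicate 1 and IVZ replicate 1 as left out by the authors on the basis of PCA. They are kept in the values given here, with values lacking them where these differ. All 10 oocyte markers examined were listed in every group. Of 14 cumulus and granulosa cell markers, Cyp19a1 was listed in every total RNA group and Grem1 also in COC and IVO, and none was listed in polysomal RNA. Of 6 sperm markers, Prm2 alone was listed, in oocytes as well as zygotes.

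Levels in RPKM, a read count per length and per library size, can be set side by side between genes. In total RNA, Btg4 was the most abundant of the 10, with group means of 621 to 711 RPKM. Dcp1a was next, at 119 to 237 RPKM, followed by Cnot7 at 69.8 to 81.6 RPKM. Cnot6l, Cnot8, Cnot1, Dcp2 and Pan2 had group means between 24.4 and 50.6 RPKM, and their order changed from group to group. Cnot6l led these 5 in both zygote groups, and in COC every Cnot8 library, at 44.3 to 46.2 RPKM, was above every Cnot6l library, at 38.3 to 43.8 RPKM. Zfp36l2 had 7.11 to 8.85 RPKM and Cnot6 had 4.42 to 5.46 RPKM. Within each catalytic pair 1 member was the more abundant: Cnot6l over Cnot6, and Cnot7 over Cnot8. These are pairs of paralogs, and how the authors counted reads that match both is not given in the sources used here. RPKM gives a share of the reads, so a change in a gene's own message cannot be told apart from a change in the rest of the RNA. The amount of RNA per cell was not measured. Rises and falls given below are changes in share, not in the amount of a message per cell.

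**Figure D1:**
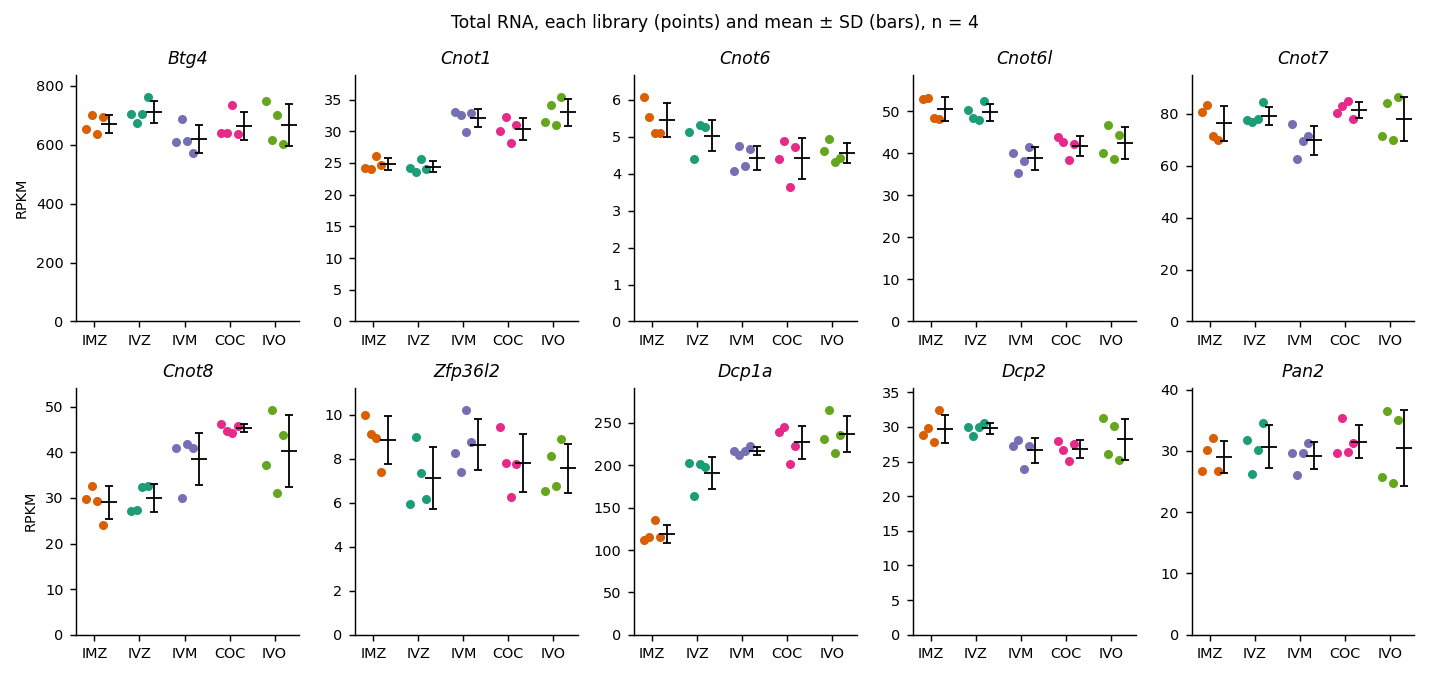
RPKM in total RNA for each of the 10 genes, with a point for each library and a bar for the mean ± SD (n = 4), groups running from IMZ to IVO. Dcp1a in the 4 IMZ libraries lies between 112 and 135 RPKM, below every other library, and all 8 zygote libraries lie below all 12 oocyte libraries for Cnot1.

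Dcp1a had a smaller share of the total RNA reads in zygotes matured and fertilized in vitro than in those matured and fertilized in vivo. In total RNA, Dcp1a (ENSMUSG00000021962) had 112, 115, 135 and 115 RPKM in IMZ, against 203, 164, 201 and 198 RPKM in IVZ. Each IMZ library was below each IVZ library, although IMZ replicate 3 and IVZ replicate 2 stood nearer to each other than the rest. The log2 fold change on the log2(RPKM + 1) scale was -0.68 ± 0.09 (SE, adjusted p = 0.00921, limma). Leaving out each of the 8 libraries in turn gave -0.75 to -0.65, with adjusted p of at most 0.0381. Dcp1a was the only member of 10 called at an adjusted p under 0.05, where 1.66% of the 10824 genes tested were called, with 1.15% lower in IMZ and 0.508% higher. Lack of overlap in that direction was found for 6.39% of genes, and for Dcp1a alone among the members. In the authors' deposited table its log2 fold change was -0.70, with a p of 6.05e-10.

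The other 9 genes did not pass the test between IMZ and IVZ. Zfp36l2 had 9.98, 9.1, 8.92 and 7.41 RPKM in IMZ and 5.92, 8.99, 7.34 and 6.18 RPKM in IVZ, so the groups overlapped, and its log2 fold change was 0.29 ± 0.12 (adjusted p = 0.235). Dcp2, the catalytic partner of Dcp1a, averaged 29.7 ± 1.98 RPKM in IMZ and 29.8 ± 0.793 RPKM in IVZ (SD, n = 4 each), with a log2 fold change of -0.01 and an approximate 95% interval, normal and from the SE, of -0.13 to 0.11. Btg4 averaged 671 ± 30.1 RPKM in IMZ and 711 ± 36.9 RPKM in IVZ, a log2 fold change of -0.08 with an interval of -0.24 to 0.07. For Cnot1, Cnot6, Cnot6l, Cnot7, Cnot8 and Pan2 the log2 fold changes lay between -0.07 and 0.10.

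In oocytes the in vitro and in vivo groups gave no called member in total RNA. Dcp1a had 217, 212, 217 and 223 RPKM in IVM, 239, 245, 201 and 223 RPKM in COC, and 231, 265, 215 and 236 RPKM in IVO. The 3 oocyte groups overlapped or adjoined one another. Its log2 fold change was -0.12 ± 0.08 for IVM against IVO (adjusted p = 0.658) and -0.06 ± 0.09 for COC against IVO (adjusted p = 0.842). The difference between stages was tested directly, as the in vitro effect in zygotes (IMZ against IVZ) minus that in oocytes (IVM and COC against IVO) over the 20 total RNA libraries. For Dcp1a this difference was -0.59 ± 0.11 (adjusted p = 0.0303, limma), where 0.291% of 10660 genes were called. The call was lost without 11 of the 20 libraries in turn, although the difference itself stayed between -0.66 and -0.54. It was also lost with the replicate number as a block (-0.59, adjusted p = 0.0757). None of the other 9 members was called in that test.

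Across the 3 oocyte comparisons in total RNA, limma called 0 of 10 members each time, against 0.509% of 10996 genes for IVM against IVO, 0.00911% of 10981 for COC against IVO, and 0.0448% of 11152 for IVM against COC. At an unadjusted p under 0.05 the counts were 0, 0 and 2 members in that order, beside 10.9%, 7.08% and 5.65% of all genes. The 2 were Cnot7 and Cnot8, the paired catalytic subunits, for IVM against COC. Cnot7 had 76, 62.5, 69.4 and 71.3 RPKM in IVM and 80.2, 83.2, 85 and 78 RPKM in COC, a log2 fold change of -0.22 ± 0.07 (adjusted p = 0.526). Cnot8 had 40.9, 30, 41.9 and 41 RPKM in IVM and 46.2, 44.7, 44.3 and 45.8 RPKM in COC, a log2 fold change of -0.24 ± 0.10 (adjusted p = 0.823). For both genes the IVM libraries lay below the COC libraries without overlap, as did 1.06% of all genes in that direction. Btg4 averaged 621 ± 47.5 RPKM in IVM, 663 ± 47.4 RPKM in COC and 667 ± 69.9 RPKM in IVO, so its groups overlapped throughout.

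Zygotes were then set against oocytes, in an in vitro and an in vivo arm. The labels do not say which in vitro maturation the IMZ zygotes had. The mean of IVM and COC, with equal weight, was therefore their reference, and it may not match their condition. In the in vitro arm, IMZ against IVM and COC, 5 of 10 members were called in total RNA, where 43.1% of the 10738 genes tested were called, 12.9% higher and 30.2% lower. Dcp1a, Cnot8 and Cnot1 were lower in IMZ, and Cnot6l and Cnot6 were higher. In the in vivo arm, IVZ against IVO, Cnot1 was the 1 member called, where 16.2% of 10693 genes were called, 2.1% higher and 14.1% lower. Groups without overlap in that arm were found for 3 of 10 members (Cnot1 and Dcp1a lower, Cnot6l higher) and for 22.2% of genes, 16.8% lower and 5.42% higher. Neither share of members stands far from that of all genes at these numbers, and the shares are given as description. For the in vitro arm the share of all genes without overlap was not counted. Separations given below for that arm therefore have no background and describe single genes only. The in vitro arm has 12 libraries and the in vivo arm 8, so a call in one and not in the other does not show a difference between them.

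Cnot1, the scaffold, was lower in zygotes of both origins. It had 24.2, 24, 26.1 and 24.7 RPKM in IMZ, against 33.1, 32.6, 29.9 and 32.8 RPKM in IVM and 30, 32.3, 28.1 and 31 RPKM in COC. It had 24.2, 23.6, 25.6 and 24 RPKM in IVZ, against 31.4, 34.1, 31 and 35.4 RPKM in IVO. No zygote library reached the lowest oocyte library in either arm. The log2 fold change was -0.32 ± 0.05 in the in vitro arm (adjusted p = 0.000173) and -0.42 ± 0.07 in the in vivo arm (adjusted p = 0.00231).

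The catalytic subunits went in different directions. Cnot6l had 53, 53.1, 48.3 and 48.1 RPKM in IMZ, above all 8 IVM and COC libraries, which ran from 35.2 to 43.8 RPKM, and rose by a log2 fold change of 0.32 ± 0.06 (adjusted p = 0.000507). In vivo it had 50.4, 48.4, 48 and 52.4 RPKM in IVZ, against 40, 46.8, 38.7 and 44.4 RPKM in IVO, a log2 fold change of 0.23 ± 0.08 (adjusted p = 0.0829). Each IVZ library was above each IVO library, and without IVO replicate 2 the change was 0.28 (adjusted p = 0.0478), while with median-of-ratios scaling the same comparison gave 0.29 (adjusted p = 0.0233). Its less abundant paralog Cnot6 had 6.08, 5.54, 5.11 and 5.11 RPKM in IMZ, against 3.63 to 4.89 RPKM in the IVM and COC libraries, a log2 fold change of 0.25 ± 0.07 (adjusted p = 0.0139). That call was lost without IMZ replicate 1, at 0.21 (adjusted p = 0.0592). In vivo, Cnot6 had a log2 fold change of 0.11 ± 0.08 (adjusted p = 0.425).

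Cnot8 had 29.7, 32.7, 29.4 and 24.1 RPKM in IMZ and fell by 0.51 ± 0.09 on the log2 scale (adjusted p = 0.000522) against IVM and COC, whose libraries are given above. A single oocyte library, IVM replicate 2 at 30 RPKM, lay within the range of the zygotes. In vivo, Cnot8 had 27.1, 27.3, 32.4 and 32.6 RPKM in IVZ, against 37.2, 49.2, 31.1 and 43.7 RPKM in IVO, a log2 fold change of -0.41 ± 0.13 (adjusted p = 0.0709). Without IVO replicate 3, the lowest of that group, it was -0.52 (adjusted p = 0.0143). Its paralog Cnot7 had a log2 fold change of 0.01 ± 0.06 in the in vitro arm and 0.03 ± 0.09 in the in vivo arm, with neither called.

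Dcp1a fell by 0.89 ± 0.07 on the log2 scale in IMZ against IVM and COC (adjusted p = 2.1e-07). All 4 IMZ libraries, at 112 to 135 RPKM, were below all 8 oocyte libraries, at 201 to 245 RPKM. In IVZ against IVO the log2 fold change was -0.31 ± 0.10 (adjusted p = 0.0693), and the IVZ libraries, at 164 to 203 RPKM, lay below the IVO libraries, at 215 to 265 RPKM. Dcp2 had a log2 fold change of 0.15 ± 0.06 in the in vitro arm (adjusted p = 0.0531) and 0.08 ± 0.08 in the in vivo arm. The first of these passed without IVM replicate 2 (0.16, adjusted p = 0.0312) or IMZ replicate 3 (0.18, adjusted p = 0.041). Btg4, Zfp36l2 and Pan2 were not called in either arm, with log2 fold changes between -0.09 and 0.10. Over the same groups the summed level of the 10 oocyte markers in total RNA was 2362 to 2946 RPKM in IMZ and 2485 to 2558 RPKM in IVZ, against 3893 to 4470 RPKM in IVM, 3409 to 3792 RPKM in COC and 3411 to 3980 RPKM in IVO. The part of that shift in the members' changes was not tested.

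**Figure D2:**
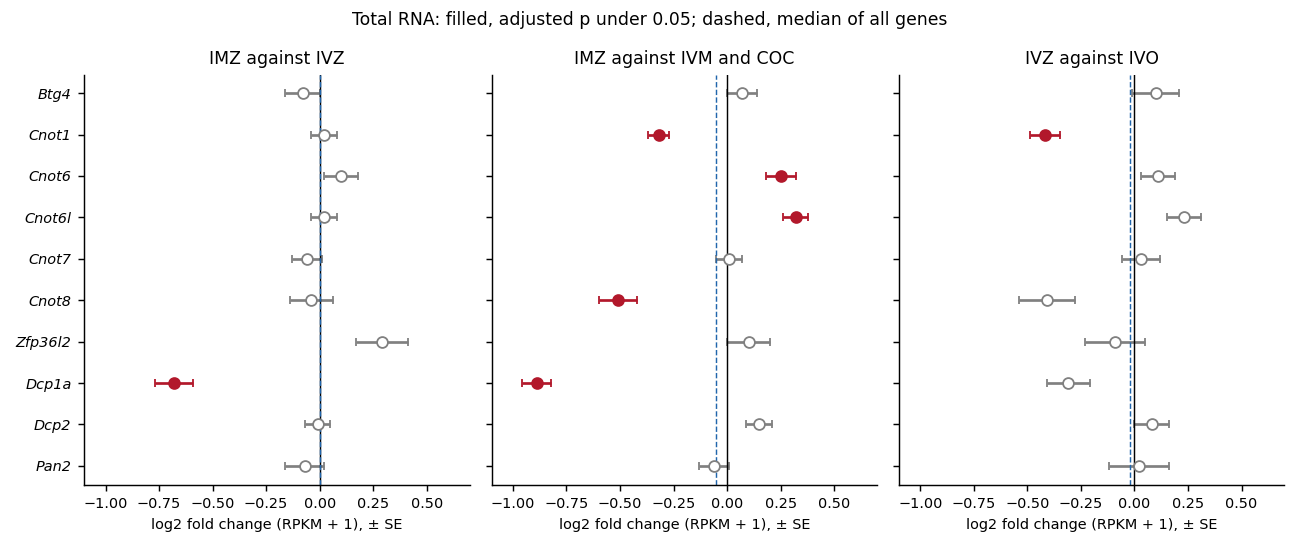
Log2 fold change on the log2(RPKM + 1) scale ± SE for the 10 genes in total RNA, in IMZ against IVZ, IMZ against IVM and COC, and IVZ against IVO. Filled points passed an adjusted p under 0.05 in limma, and the dashed line is the median of all genes. Dcp1a is the 1 filled point in the left panel, at -0.68.

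In polysomal RNA the spread between libraries was far wider, and limma called few genes of any kind. Dcp1a had 64, 47.8, 39.6 and 64 RPKM in IMZ, against 47.5, 83.4, 99.7 and 122 RPKM in IVZ. The groups overlapped through IVZ replicate 1, the shallowest of the polysomal libraries whose depth was recovered. The log2 fold change was -0.65 ± 0.33 (adjusted p = 0.845), close in size to that in total RNA, and without IVZ replicate 1 it was -0.91 (adjusted p = 0.62). The interaction with fraction, the polysomal minus the total change, was 0.03 ± 0.34 (adjusted p = 1). Interactions with fraction for this pair and for the 3 oocyte pairs, and the polysomal difference between stages, called 0 of 9 members and 0% of all genes each, with 0 members at an unadjusted p under 0.05, beside 3.28% to 5.31% of all genes. Without the libraries the authors left out, the members at such a p were Dcp1a for the polysomal difference between stages (-1.01, beside 7.37% of genes), Btg4 and Cnot7 for the interaction in zygotes (-0.49 and -0.83, beside 7.69%) and Zfp36l2 for that of IVM against COC (-0.88, beside 7.02%). None of these passed after adjustment. In the authors' deposited table, made without that library, Dcp1a had a polysomal log2 fold change of -0.77 with a p of 6.5e-05, or 0.0129 after Benjamini-Hochberg adjustment of the authors' p-values. No other member passed after that adjustment, the next being Cnot7 at -0.65, with the authors' p of 0.012 and an adjusted value of 0.157.

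Between zygote groups and between oocyte groups, 0 of 9 members were called in polysomal RNA in each of the 4 comparisons, and 0% of all genes were called in each. At an unadjusted p under 0.05 the count of members was 0 in all 4, beside 2.98% to 5.68% of all genes. Without IVZ replicate 1, 2 members had such a p in IMZ against IVZ, Dcp1a (-0.91, adjusted p = 0.62 in limma) and Cnot7 (-0.88, adjusted p = 0.664), beside 7.2% of genes. Intervals were wide: for Btg4, IVM against IVO gave -0.29 with an interval of -0.93 to 0.35, and for Cnot7, IVM against COC gave 0.64 with an interval of -0.19 to 1.46. Zfp36l2 had 10.4, 3.28, 12.9 and 11.1 RPKM in IVM and 13.4, 14.7, 14.2 and 13.7 RPKM in COC, and was the 1 member whose polysomal groups did not overlap in these 4 comparisons. The log2 fold change was -0.66 ± 0.39 (adjusted p = 0.878), with -0.84 to -0.27 on leaving out each library in turn. Of all genes in that table, 2.17% were lower without overlap. In either direction, groups did not overlap for 3.46% of genes in IMZ against IVZ, 1.96% in IVM against IVO, 3.27% in COC against IVO and 3.17% in IVM against COC.

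Fertilization gave 1 polysomal call among the members. In IMZ against IVM and COC, Dcp1a fell by 0.91 ± 0.24 on the log2 scale (adjusted p = 0.0424), where 3.65% of 4408 genes were called. Its 4 IMZ values above compare with 109, 85.3, 92.5 and 139 RPKM in IVM and 111, 66.3, 117 and 97.1 RPKM in COC. All IMZ libraries were below all IVM and COC libraries, a separation whose share over all genes was not counted. The call was lost without 9 of the 12 libraries in turn, where the change ran from -1.0 to -0.77. Cnot6l had 21.7, 17.9, 23.3 and 32.2 RPKM in IMZ, against 11.5, 13.4, 13.8 and 18.7 RPKM in IVM and 13.6, 7.54, 15.1 and 11.5 RPKM in COC. Its log2 fold change of 0.81 ± 0.26 did not pass (adjusted p = 0.104), and with median-of-ratios scaling it did, at 0.95 (adjusted p = 0.0413).

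In vivo, IVZ against IVO, 0 of 9 members were called in polysomal RNA by limma, where 0.449% of 6010 genes were called, and 1 member, Cnot6l, had an unadjusted p under 0.05, beside 13% of all genes. Without IVZ replicate 1 there were 2, Cnot6l (0.96) and Cnot7 (0.90), beside 14.4%. Cnot6l had 21.3, 34.5, 21.4 and 25.9 RPKM in IVZ, against 9.65, 17.7, 14 and 12.8 RPKM in IVO, a log2 fold change of 0.88 ± 0.35 (adjusted p = 0.314). Each IVZ library was above each IVO library, as in 4.79% of all genes. Whether the polysomal change differed from the total change was tested as an interaction, a pair of tests added after the values were seen. For Cnot6l it was 0.65 ± 0.30 in vivo (adjusted p = 0.442) and 0.49 ± 0.24 in vitro (adjusted p = 0.557), and no member was called by limma in either test, where 0.0833% and 0.272% of all genes were. At an unadjusted p under 0.05 the count was 1 member in vivo, beside 10.9% of all genes, and 0 in vitro, beside 9.15%. Without the libraries the authors left out, it was 4 members in vivo (Cnot1, Cnot6l, Cnot7 and Cnot8, at 0.73 to 0.89, adjusted p of 0.117 to 0.239 in limma), beside 15.5%, and 0 in vitro.

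**Figure D3:**
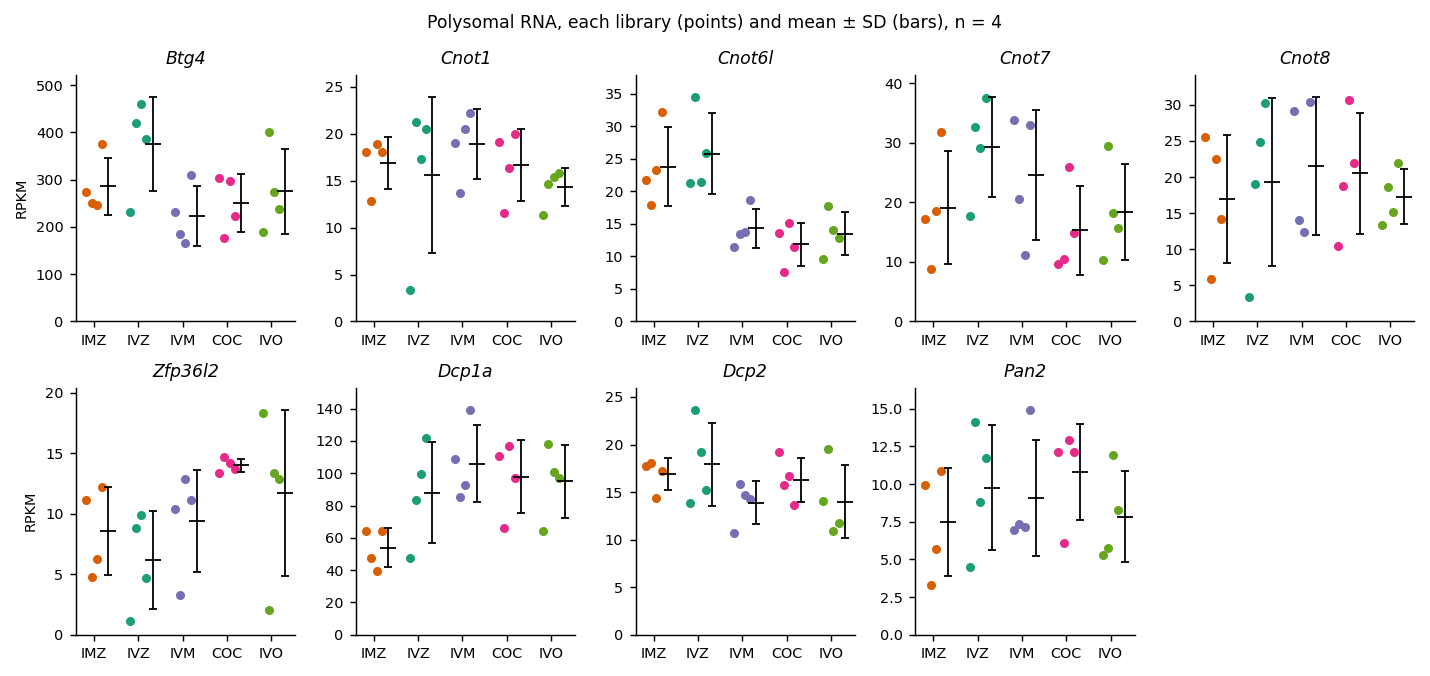
RPKM in polysomal RNA for the 9 genes listed there, with a point for each library and a bar for the mean ± SD (n = 4). Cnot6l lies higher in both zygote groups, at 17.9 to 34.5 RPKM, than in most oocyte libraries, and in Cnot1 and Cnot8 IVZ replicate 1 lies far below the other IVZ libraries.

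Polysomal RNA was set against total RNA within each group. The fits were unpaired, since the labels do not say whether both fractions of a sample code came from the same collection. A member's share of polysomal RNA was mostly below its share of total RNA: 8 of 9 members were lower in IMZ, IVM, COC and IVO, and 6 of 9 in IVZ. Lower calls took 46% of all genes in IMZ, 30.1% in IVZ, 38.9% in IVM, 44.3% in COC and 45.2% in IVO. Calls in either direction took 61.1%, 41%, 53.9%, 67.8% and 59.1% in that order, and higher calls 15.1%, 10.9%, 14.9%, 23.4% and 13.9%. The median log2 ratio of all genes was itself below 0, from -0.55 in IVO to -0.38 in IVZ, and a ratio minus the median of the same group is called a relative log2 ratio here. With median-of-ratios scaling, which removes that shift, Btg4, Cnot6l, Cnot7, Dcp1a and Pan2 were called lower in every group, and Dcp2 in none. Cnot1 and Cnot8 were then called lower in COC and IVO only.

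Cnot7 and Pan2 stood furthest below the median in IMZ, IVZ, IVM and IVO, and Cnot7 and Cnot6l in COC. For Cnot7 the relative log2 ratio was -1.55 in IMZ, -1.07 in IVZ, -1.09 in IVM, -2.04 in COC and -1.56 in IVO, with standard errors of 0.23 to 0.33. In COC it had 9.66, 10.5, 26 and 14.9 RPKM in polysomal RNA, against 80.2, 83.2, 85 and 78 RPKM in total RNA. For Pan2 the relative log2 ratio lay between -1.42 in IMZ and -1.11 in COC. Btg4 was lower by less, with a relative log2 ratio from -1.03 in COC to -0.59 in IVZ. Its polysomal values of 190, 400, 273 and 237 RPKM in IVO stood against 749, 616, 700 and 602 RPKM in total RNA, and it was still the most abundant member in polysomal RNA in every group. On the same relative scale Cnot6l ran from -1.36 in COC to -0.57 in IMZ and IVZ, and Dcp1a from -0.83 in COC to -0.55 in IVM. Dcp2 was nearer the median, at relative log2 ratios of -0.43 to -0.27. Cnot1 ran from -0.61 in IVO to -0.03 in IMZ, where it lay nearer the median than Dcp2. Cnot8 ran from -0.80 in COC to -0.39 in IMZ.

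Zfp36l2 had the highest ratio of the 9 members in every group. In COC it had 13.4, 14.7, 14.2 and 13.7 RPKM in polysomal RNA, against 9.44, 7.8, 6.24 and 7.78 RPKM in total RNA, with no overlap, as for 20.6% of all genes in that direction. The log2 ratio in COC, not relative to the median, was 0.78 ± 0.17 (adjusted p = 0.00247). It was the 1 higher call among the members, where 23.4% of all genes were called higher in COC. In the other groups the same log2 ratio was -0.12 ± 0.28 in IMZ, -0.41 ± 0.47 in IVZ, -0.01 ± 0.36 in IVM and 0.29 ± 0.48 in IVO, none called. Relative to the median the ratios were 0.39 in IMZ, -0.03 in IVZ, 0.48 in IVM, 1.18 in COC and 0.85 in IVO, so the gene lay above the median in 4 of 5 groups. Without polysomal IVO replicate 2 the ratio in IVO was 0.88, and called (adjusted p = 0.00327). The tests of the difference did not separate COC from IVM (-0.79 ± 0.41 for IVM against COC, adjusted p = 0.888) or from IVO (0.48 ± 0.54 for COC against IVO, adjusted p = 0.915). Read support was thin in places, at about 13 reads in polysomal IVZ replicate 1, about 57 in IVM replicate 2 and about 80 in IVO replicate 2.

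In IVZ the fraction ratios of Cnot1 and Cnot8 turned on 1 library. Polysomal Cnot1 had 3.4, 21.2, 17.3 and 20.5 RPKM, and Cnot8 had 3.32, 19, 24.8 and 30.2 RPKM, the low value being replicate 1 in both. The log2 ratio to total RNA in IVZ, not relative to the median, was -0.86 ± 0.47 for Cnot1 and -0.92 ± 0.53 for Cnot8, and without replicate 1 it was -0.30 and -0.28, not called either way. In IMZ the calls of Cnot1 and Cnot8 were lost without 4 and 6 of the 8 libraries, and in IVM that of Cnot8 without 5 of 8. In IVZ the call of Dcp2 was lost without 4 of 8.

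**Figure D4:**
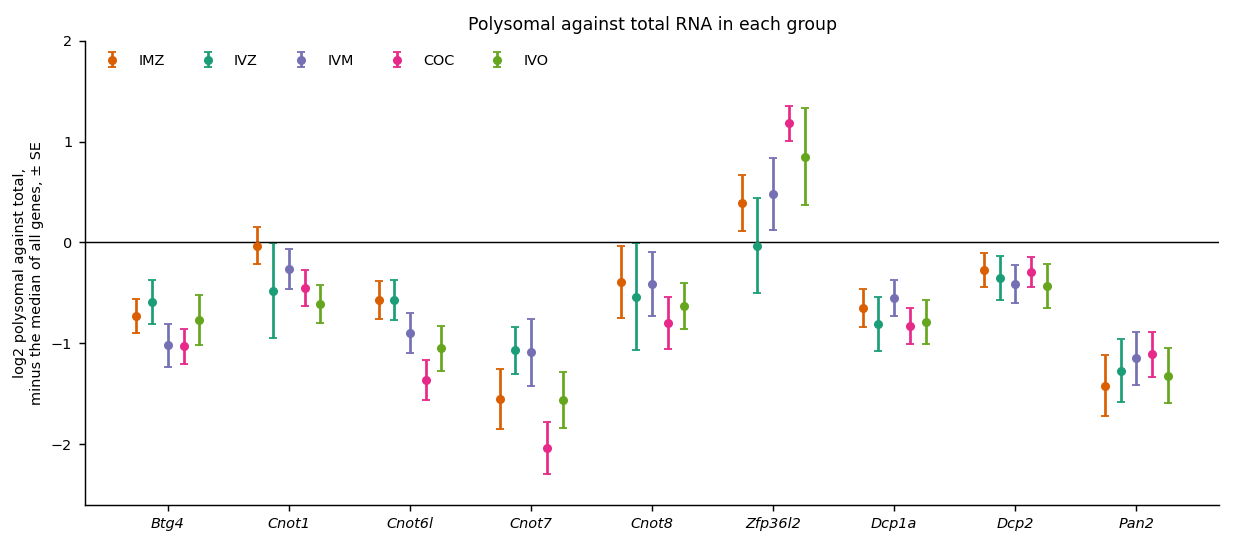
Log2 ratio of polysomal to total RNA for 9 genes in each group, minus the median of all genes of that group, ± SE of the ratio. Cnot7 lies lowest in COC, at -2.04, Dcp2 is among the nearest to 0, and Zfp36l2 is above 0 in IMZ, IVM, COC and IVO, at most 1.18, in COC.

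The wider decay pathway was followed through 92 gene symbols in 7 lists that do not include the members. Of these, 80 or 81 were tested in each total RNA comparison. The 92 include some genes under both an older and a newer symbol, such as Wdr61 and Skic8. Between IMZ and IVZ, 3 of 80 were called, all lower in IMZ: Lsm5 of the Lsm ring that binds deadenylated ends (-0.67 ± 0.14, adjusted p = 0.0438), the exosome helicase Mtrex (-0.52 ± 0.06, adjusted p = 0.00647) and the exosome subunit Exosc3 (-0.40 ± 0.08, adjusted p = 0.0369). Of all genes, 1.66% were called, 1.15% lower in IMZ and 0.508% higher. The median over the lists was 0.03, beside -0.00 for all genes. Between oocyte groups, 1 of 81 was called, Wdr61 of the Ski complex, higher in IVM than in IVO by 0.27 ± 0.05 (adjusted p = 0.0412). Wdr61 had 0.54 ± 0.0583 RPKM in IVM and 0.275 ± 0.0142 RPKM in IVO, close to the lower limit of the tables. Of all genes, 0.509% were called for IVM against IVO.

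In IMZ against IVM and COC, 19 of 80 list genes were higher and 27 lower, beside 12.9% and 30.2% of all genes. Their median was -0.08, beside -0.05 for all genes. In IVZ against IVO, 3 of 80 were higher and 16 lower, beside 2.1% and 14.1% of all genes, with a median of -0.03 beside -0.02. The other CCR4-NOT subunits included Cnot10 and Cnot11, which form a module on the scaffold. Cnot11 averaged 33 ± 2.22 RPKM in IMZ and 38.1 ± 3.37 RPKM in IVZ, against 56.7 ± 2.52 RPKM in IVM, 55.9 ± 2.66 RPKM in COC and 59.8 ± 2.27 RPKM in IVO. It fell by 0.76 ± 0.05 in vitro (adjusted p = 1.35e-07) and by 0.64 ± 0.08 in vivo (adjusted p = 0.000302), and Cnot10 fell by 0.76 ± 0.06 and by 0.68 ± 0.11. Of the 17 genes of decapping and 5′ to 3′ decay tested, 9 fell and 3 rose in vitro, and 6 fell and 1 rose in vivo. Lsm5 and Lsm4 were among the 3 with the smallest p in both arms: Lsm5 fell by 1.90 ± 0.19 in vitro and by 1.40 ± 0.17 in vivo, and Lsm4 fell by 1.33 ± 0.08 and by 1.34 ± 0.10. Pan3, the partner of Pan2, rose by 0.35 ± 0.06 in vitro (adjusted p = 0.00018).

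In polysomal RNA, 0 of the list genes tested were called by limma between IMZ and IVZ, between oocyte groups or in IVZ against IVO. Of all genes, 0.449% were called in IVZ against IVO and 0% in each of the others. At an unadjusted p under 0.05 the counts were 5 of 64 for IMZ against IVZ, 0 of 50 for IVM against IVO, 2 of 72 for COC against IVO, 1 of 49 for IVM against COC and 5 of 64 for IVZ against IVO. The shares of all genes at that p were 5.68%, 2.98%, 5.23%, 4.44% and 13% in that order. In IMZ against IVM and COC, 2 of 46 were called lower, Lsm7 (-1.20 ± 0.29, adjusted p = 0.0317) and the germ cell RNA-binding protein Nanos2 (-1.06 ± 0.26, adjusted p = 0.0296). Of all genes, 3.65% were called there in either direction. Against total RNA, the 7 other CCR4-NOT subunits had median log2 ratios of -1.01 to -0.69, below the median of all genes in each group. Of the 7, 4 to 6 were called lower, beside 30.1% of all genes in IVZ to 46% in IMZ. Cnot2, a subunit of the NOT module, was among those called lower in every group, for example by -1.73 ± 0.19 in IMZ. The genes of decapping and 5′ to 3′ decay had medians of -0.23 to 0.47, above that of all genes in each group. Their calls went both ways. Of 13 tested in IMZ, 6 were lower and 5 higher, and of 13 in IVZ, 5 and 1. Of 9 in IVM, 4 were lower and 2 higher, of 16 in COC, 6 and 6, and of 16 in IVO, 5 and 2. Higher calls took 10.9% of all genes in IVZ to 23.4% in COC.

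The 5 genes whose level in total RNA was most like that of Btg4 over the 20 libraries, among 9015 genes considered, were Yeats4 (Pearson r = 0.916), Tgds (0.913), Med30 (0.909), Cks1b (0.900) and Syf2 (0.898). Effects shared by libraries, such as batch, depth or base composition, can enter such a value, and their part was not tested. The r is a description, given without a test. Among the members, r with Btg4 was 0.63 for Dcp2 and -0.71 for Zfp36l2, with the rest between -0.55 and 0.17.

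Cytoplasmic polyadenylation, which switches stored messages on in maturing oocytes, depends on a U-rich element in the 3′ UTR near the AAUAAA-type hexamer. The letters TTTTAT, a common form of that element, were looked for on the sense strand in the last 100 bases of 1 annotated transcript per gene. Of 7 members with a chosen transcript that ends in AATAAA or ATTAAA within its last 40 bases, 4 hold TTTTAT, beside 15.4% of 8244 genes listed in the IVM and IVO total RNA table. The window and the letters were chosen after all of these ends had been viewed, other annotated ends of Btg4 and Cnot7 differ, and which end these cells use was not measured. Stretches of up to 30 bases from the 4, and from Zfp36l2, which had the highest fraction ratio, follow from GENCODE M21 (GRCm38), 5′ to 3′ on the sense strand. Capitals mark TTTTAT and AATAAA.
Btg4-203: ctttatgtaaaaTTTTATgaacactagtga
Cnot7-211: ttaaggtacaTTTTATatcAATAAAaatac
Dcp1a-201: tttcatcctaaaTTTTATatgtttgcaaat
Pan2-201: gTTTTATaaAATAAAagtatTTTTATctca
Zfp36l2-201: tttgtagtttcccccAATAAAattttttgg
The last TTTTAT starts 96 bases before the end in Btg4, 20 in Cnot7, 67 in Dcp1a and 18 in Pan2, which holds 3 copies in its last 100 bases. The last hexamer starts 30, 11, 39 and 29 bases before the end in that order. The last TTTTAT of Pan2 thus lies after its hexamer, with another copy before it. The count did not require TTTTAT to lie near the hexamer or before it. No TTTTAT is in that window of Zfp36l2, Cnot6l or Dcp2. A match of letters is a description and not a site in use.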

How the data were processed

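The authors deposited 8 tables, each with RPKM values, so named in the file headers, for 8 libraries, a read count per gene length and library size. Each deposited table also gives the authors' log2 fold change and p-value per gene. The submitters' processing notes name DRAGEN and the build GRCm39, and the labels' protocols name a stranded total RNA kit for picogram inputs. The sources used here do not give the annotation, the strand setting, the handling of multi-mapped reads or the authors' test. Libraries shared between the oocyte tables of a fraction held identical values, and groups were also compared across tables. No library was shared between zygote and oocyte tables or between fractions. That zygote and oocyte values, or polysomal and total values, are on the same scale was therefore assumed and not checked.

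With no counts deposited, each comparison was fitted on log2(RPKM + 1) with limma 3.58.1 in R 4.3.3, with a variance trend and no covariate, and p-values were adjusted by Benjamini-Hochberg over all genes of the fit. A fold change on this scale understates that of low genes. Genes with an adjusted p under 0.05 were called, and fits were tested on simulated data. In all, 25 comparisons were run, and 2 of these, the interactions of fertilization with fraction, were added after the data were seen. Depth per library came from the spacing of low RPKM values, using exon lengths of GENCODE M21, by a rule settled after its first output was seen.

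The members, the gene lists and the tests were chosen with earlier results of these data known. Members are named throughout, and of each list up to 3 called genes with the smallest p. The 3′ end window, its letters, the transcript rule (complete, best-supported, preferring a hexamer, then the longest) and the choice of ends printed came after all members' ends had been viewed. Alternatives were median-of-ratios scaling, a replicate block, each library left out in turn, a filter at a mean of 1 RPKM, a pseudocount of 0.1, and removal of the 2 libraries the authors left out. That removal was planned for 3 polysomal comparisons and added for 10 others after the data were seen.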

Additional observations from a re-analysis of the deposited data

Results flagged for a closer look

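In groups of 4 libraries, 9 of 95 sets of a gene's values had 1 library separated from the rest by more than Dixon's 95% critical value, where chance gives about 1 in 20. In total RNA these were Btg4 in COC replicate 3, at 734 RPKM against 638 to 640 RPKM in the other 3, and Cnot1 in IVM replicate 3, at 29.9 RPKM against 32.6 to 33.1 RPKM. Cnot7 in IVZ replicate 4 stood at 84.4 RPKM against 76.9 to 78.1 RPKM, and Cnot8 in IVM replicate 2 at 30 RPKM against 40.9 to 41.9 RPKM. Dcp1a was set apart in IMZ replicate 3, at 135 RPKM against 112 to 115 RPKM, and in IVZ replicate 2, at 164 RPKM against 198 to 203 RPKM. Both of these libraries lie on the side of the other zygote group.

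In polysomal RNA they were Cnot1 in IMZ replicate 2, at 12.8 RPKM against 18 to 18.9 RPKM, and Pan2 in IVM replicate 4, at 14.9 RPKM against 6.95 to 7.35 RPKM. Pan2 in COC replicate 2 stood at 6.1 RPKM against 12.1 to 12.9 RPKM.

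The in vitro effect on Dcp1a in total RNA differed between zygotes and oocytes in a direct test, by -0.59 ± 0.11 on the log2 scale (adjusted p = 0.0303, limma), a call that was lost without 11 of the 20 libraries in turn and with the replicate number as a block (adjusted p = 0.0757). All 4 IMZ libraries were below all 4 IVZ libraries, whereas the IVM and COC libraries overlapped those of IVO.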

How the results depend on the processing

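Leaving aside single libraries, 1045 values of members were recomputed under other settings: 984 kept their direction and side of the threshold, 12 lost a call, 6 gained one and 43 changed sign. Leaving out 1 library at a time gave 2664 values, of which 2450 kept both, 40 lost a call, 5 gained one and 169 changed sign. No value that was called in either setting changed sign. The call of Dcp1a between IMZ and IVZ in total RNA held in every setting run. The spread between polysomal libraries limits the polysomal results, and how far depth does is not known, since it could not be recovered for 8 of 20 polysomal libraries. The cause of the changes listed here was not tested.

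With median-of-ratios scaling the number of members called was 2 for IVZ against IVO in total RNA (Cnot1 and Cnot6l), 2 for IMZ against IVM and COC in polysomal RNA (Cnot6l and Dcp1a), and 5 for polysomal against total RNA in both IVM and IMZ. Dcp2 in IMZ against IVM and COC in total RNA, at 0.15, passed with a mean RPKM of at least 1 (adjusted p = 0.0499), and at 0.23 with median-of-ratios scaling (adjusted p = 0.00713). The members that changed sign under that scaling, none called, had these log2 values. IVM against COC in total RNA gave -0.011 for Cnot6. IVM against IVO in polysomal RNA gave -0.064 for Cnot6l and -0.14 for Dcp2. COC against IVO in polysomal RNA gave -0.025 for Cnot8 and -0.15 for Dcp1a. IMZ against IVZ in polysomal RNA gave 0.10 for Cnot8 and 0.05 for Dcp2. IMZ against IVM and COC in total RNA gave 0.023 for Pan2. The in vitro effect in zygotes minus oocytes in total RNA gave 0.00053 for Btg4 and 0.018 for Cnot7. IMZ against IVM and COC in polysomal RNA gave 0.078 for Cnot1 and 0.094 for Cnot7. The in vitro effect in zygotes minus oocytes in polysomal RNA gave 0.10 for Btg4, 0.17 for Cnot6l, 0.044 for Cnot8 and 0.064 for Dcp2. For Zfp36l2, polysomal against total RNA gave 0.38 in IMZ and 0.43 in IVM. The interaction of IVM against IVO with fraction gave -0.061 for Dcp2. The interaction of COC against IVO with fraction gave -0.095 for Dcp1a. The interaction of IVM against COC with fraction gave 0.00057 for Btg4. The interaction of IMZ against IVZ with fraction gave 0.0053 for Cnot6l and 0.086 for Dcp2. The interaction of IVZ against IVO with fraction gave -0.018 for Cnot8, -0.11 for Dcp1a and -0.016 for Pan2. The interaction of IMZ against IVM and COC with fraction gave 0.01 for Dcp1a.

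Without the polysomal libraries the authors left out, no count of called members moved by over 1.5 times, and the following values changed sign, none called. IVM against COC in polysomal RNA gave -0.12 for Cnot8. IMZ against IVZ in polysomal RNA gave -0.22 for Cnot1. IVZ against IVO in polysomal RNA gave 0.44 for Cnot1, 0.49 for Cnot8 and 0.11 for Dcp1a. IMZ against IVM and COC in polysomal RNA gave 0.056 for Cnot7. The in vitro effect in zygotes minus oocytes in polysomal RNA gave -0.50 for Cnot1 and -0.061 for Zfp36l2. Polysomal against total RNA in IVZ gave 0.084 for Zfp36l2. The interaction of IMZ against IVZ with fraction gave -0.24 for Cnot1, -0.61 for Cnot8, -0.20 for Zfp36l2 and -0.24 for Dcp1a. The interaction of IMZ against IVM and COC with fraction gave 0.041 for Cnot7 and -0.044 for Dcp2. A pseudocount of 0.1 changed the sign of 1 value, Cnot8 in IMZ against IVZ in polysomal RNA, at 0.0021.

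Replicate numbers gave no clear pairing of the libraries, and with 4 libraries per group the check cannot exclude one. In none of 15 comparisons did same-numbered libraries all correlate above 0.1 in their deviations from group means. In none did all 4 libraries of a group correlate best with their own number (0 to 3 of 4). The 3 of 4 were in IVZ against IVO in polysomal RNA. With the replicate number as a block, 2 members were called for IVZ against IVO in total RNA (Cnot1 and Cnot8) and 0 for the in vitro effect in zygotes minus oocytes in total RNA, where Dcp1a had an adjusted p of 0.0757. The block also took the calls of Cnot1 in IMZ and Dcp2 in IVZ between fractions, and gave one to Dcp2 in IMZ against IVM and COC in total RNA.

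Leaving out each library in turn, the counts of called members that moved and the log2 values that changed sign had these ranges. IVM against IVO in total RNA gave -0.17 to 0.055 for Cnot8 and -0.14 to 0.047 for Pan2. COC against IVO in total RNA gave -0.055 to 0.052 for Btg4, -0.088 to 0.028 for Cnot6, -0.063 to 0.027 for Cnot6l, -0.048 to 0.13 for Zfp36l2 and -0.027 to 0.16 for Pan2. IVM against COC in total RNA gave -0.066 to 0.05 for Cnot6 and -0.04 to 0.038 for Dcp2. IMZ against IVZ in total RNA gave -0.0023 to 0.045 for Cnot1, -0.0015 to 0.046 for Cnot6l, -0.10 to 0.038 for Cnot8 and -0.048 to 0.024 for Dcp2. IVM against IVO in polysomal RNA gave -0.056 to 0.21 for Cnot6l, -0.72 to 0.25 for Zfp36l2, -0.0039 to 0.29 for Dcp1a, -0.10 to 0.16 for Dcp2 and -0.054 to 0.39 for Pan2. COC against IVO in polysomal RNA gave -0.28 to 0.081 for Btg4, -0.32 to 0.0078 for Cnot6l, -0.055 to 0.43 for Cnot8, -0.068 to 0.82 for Zfp36l2 and -0.13 to 0.22 for Dcp1a. IVM against COC in polysomal RNA gave -0.22 to 0.27 for Cnot8 and -0.048 to 0.22 for Dcp1a. IMZ against IVZ in polysomal RNA gave -0.22 to 0.56 for Cnot1, -0.27 to 0.029 for Cnot6l, -0.66 to 0.38 for Cnot8 and -0.17 to 0.071 for Dcp2. IVZ against IVO in total RNA gave 1 to 2 members called, and -0.023 to 0.078 for Cnot7 and -0.07 to 0.11 for Pan2. IMZ against IVM and COC in total RNA gave -0.028 to 0.055 for Cnot7. The in vitro effect in zygotes minus oocytes in total RNA gave 0 to 1 members called, and -0.088 to 0.017 for Btg4, -0.063 to 0.037 for Cnot7, -0.21 to 0.0061 for Cnot8 and -0.18 to 0.0069 for Pan2. IVZ against IVO in polysomal RNA gave -0.33 to 0.44 for Cnot1, -0.46 to 0.49 for Cnot8 and -0.33 to 0.11 for Dcp1a. IMZ against IVM and COC in polysomal RNA gave 0 to 1 members called, and -0.14 to 0.065 for Cnot1, -0.32 to 0.26 for Cnot7 and -0.60 to 0.043 for Cnot8. The in vitro effect in zygotes minus oocytes in polysomal RNA gave -0.50 to 0.28 for Cnot1, -0.22 to 0.077 for Cnot6l, -0.85 to 0.19 for Cnot8 and -0.10 to 0.98 for Zfp36l2. For Zfp36l2, polysomal against total RNA gave -0.30 to 0.10 in IMZ, -0.69 to 0.084 in IVZ, -0.19 to 0.37 in IVM and -0.0023 to 0.88 in IVO. The interaction of IVM against IVO with fraction gave -0.36 to 0.0095 for Btg4, -0.89 to 0.077 for Zfp36l2, -0.019 to 0.24 for Dcp2 and -0.0082 to 0.43 for Pan2. The interaction of COC against IVO with fraction gave -0.27 to 0.087 for Btg4, -0.30 to 0.028 for Cnot6l, -0.24 to 0.25 for Cnot8, -0.10 to 0.78 for Zfp36l2 and -0.07 to 0.28 for Dcp1a. The interaction of IVM against COC with fraction gave -0.25 to 0.049 for Btg4 and -0.067 to 0.23 for Cnot1. The interaction of IMZ against IVZ with fraction gave -0.24 to 0.54 for Cnot1, -0.29 to 0.0077 for Cnot6l, -0.61 to 0.43 for Cnot8, -0.20 to 0.58 for Zfp36l2, -0.24 to 0.21 for Dcp1a and -0.16 to 0.078 for Dcp2. The interaction of IVZ against IVO with fraction gave -0.057 to 0.89 for Cnot8 and -0.027 to 0.42 for Dcp1a. The interaction of IMZ against IVM and COC with fraction gave -0.33 to 0.25 for Cnot7, -0.092 to 0.56 for Cnot8, -0.11 to 0.12 for Dcp1a and -0.044 to 0.081 for Dcp2.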
